A study of Homo sapiens with 6 samples.

Results

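The IFI27 and IFI6 family is a group of small hydrophobic proteins encoded by 4 human genes, IFI27, IFI27L1, IFI27L2 and IFI6. The members were chosen as every row of the deposited annotated table whose gene symbol is one of these names, and each name had 1 transcript cluster, the set of array probes that reads 1 annotated transcription unit. They are thus 4 of 24930 genes tested and 4 of 65854 transcript clusters. The family was selected with the values of the same contrast known, so its values are given as a description with no test.

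Interferons are secreted proteins that act through surface receptors, Janus kinases and STAT transcription factors to raise a large set of antiviral genes, and IFI27 and IFI6 belong to that set. IFI27 (also known as ISG12a) and IFI6 (also known as G1P3 or 6-16) have been placed at mitochondria, and IFI6 also at the endoplasmic reticulum. IFI27 has been described as favouring mitochondrial cell death, and IFI6 as opposing it. IFI27L1 and IFI27L2 (ISG12c and ISG12b) are close relatives whose functions are less well known.

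RNA was measured in 2 groups of 3 arrays each. T24/THP is a multidrug-resistant line raised from T24 by repeated treatment, 24 h at a time, with the anthracycline pirarubicin, a topoisomerase II poison, at concentrations that began at 5 ng/ml and ended at 1000 ng/ml over more than 6 months, and it was dosed again every 2 to 3 weeks to hold its resistance. T24 is the human bladder cancer line it came from, drug-sensitive and cultured in parallel. Per the labels the arrays are biological replicates from independent samples, while the resistant line was derived once, so that spread between arrays is not spread between selections. The time between the last dose and RNA extraction is not given, and whether drug, descent or culture sets a difference cannot be told apart. The question put by the design is which genes are expressed differently once resistance is established.

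The arrays had medians of 3.71 to 3.79 log2 units. Across genes, 2 arrays of the same line correlated at 0.997 to 0.998 (Pearson's r) and 2 arrays of different lines at 0.977 to 0.981. KRT7, KRT8 and KRT18, keratins of simple epithelium, were measured above background in both lines, while KRT19, EPCAM and CDH1 and all 11 urothelial markers were not, so the bladder origin on the label is not visible in these markers. All 13 leukocyte markers were within background in either line, with a mean level of 3.35 to 3.38 log2 units over the T24/THP arrays and 3.29 to 3.39 over the T24 arrays. All 7 fibroblast markers and 4 of 5 endothelial markers were in background too, and CDH5 alone was measured, at 13.12 ± 0.13 (SD, n = 3) log2 units in T24/THP and 12.30 ± 0.14 in T24. Of these 42 markers, 0 were called by limma under the rule explained below, by which 2.85% of all genes were higher and 3.77% lower. Most of the 42 were within background in both lines, which leaves little room for a call. At an unadjusted p under 0.05, 6 were higher and 3 lower.

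The promoter sequences of IFI27 and IFI6 are shown first, as those of the 2 members whose promoters held a match to an interferon element. Whether the matches bear on the differences between the lines was not tested. The interferon-stimulated response element is the promoter sequence through which type I interferon acts on its target genes, and its core was searched as GAAANNGAA on both strands. The 250 bases before the RefSeq gene start (GRCh38.p14) are printed 5′ to 3′ along the gene's strand, at chr14:94110486-94110735 (plus strand) for IFI27 and chr1:27672193-27672442 (minus strand) for IFI6, with the matches to that core in capitals.
IFI27: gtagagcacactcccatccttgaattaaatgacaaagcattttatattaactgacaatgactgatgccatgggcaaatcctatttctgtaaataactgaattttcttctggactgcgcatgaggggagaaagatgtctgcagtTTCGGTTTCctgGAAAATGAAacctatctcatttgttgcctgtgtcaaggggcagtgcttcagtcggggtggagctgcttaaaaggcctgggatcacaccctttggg
IFI6: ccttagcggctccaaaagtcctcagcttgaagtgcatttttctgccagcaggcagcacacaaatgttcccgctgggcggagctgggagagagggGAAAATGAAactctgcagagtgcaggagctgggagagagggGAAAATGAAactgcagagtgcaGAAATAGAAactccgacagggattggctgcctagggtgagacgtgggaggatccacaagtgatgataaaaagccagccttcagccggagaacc
IFI27 held 2 matches, on the opposite strand from 107 bases before the start and on the gene's strand from 95 bases before it. IFI6 held 3 matches on its own strand, from 156, 115 and 93 bases before the start.

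The search used windows from 250 bases before to 50 after each start in RefSeq's promoter table, in which 4 of 4 members and 27305 genes had at least 1 window. The corresponding windows of IFI27L1 (chr14:94081060-94081359, plus strand) and IFI27L2 (chr14:94129555-94129854, minus strand) held no match. Of all 27305 genes, 2693 (9.86%) held at least 1 match, 235 (0.861%) at least 2 and 31 (0.114%) at least 3. Of the 37 genes of a list of other interferon-induced genes that had a window, 27 (73.0%) held at least 1, 15 (40.5%) at least 2 and 6 (16.2%) at least 3. A second start of IFI27 in the table gave a window with the same 2 matches. A match describes the letters only and does not show a bound site.

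The gamma-activated site, an element best known from the response to interferon gamma, was searched as TTCNNNGAA, a motif that reads the same on both strands. IFI27 held 1 match from 101 bases before its start, and it overlapped both interferon element matches, while the other members held none. Among the 27305 genes 9.38% held one, as did 11 of the 37 interferon-induced genes (29.7%). The base composition also separated the members: G and C made up 44.7% of the IFI27 window, 54.0% of IFI6, 65.3% of IFI27L1 and 63.3% of IFI27L2.

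The IFI6 promoter contained an exact repeat that spans the first 2 of its 3 matches, and IFI27 and IFI6 shared a shorter run that holds a core match. These are shown to let the copies be found in the sequences above, with the repeat starting 173 and 132 bases before the IFI6 start.
IFI6 repeat: ggagctgggagagaggggaaaatgaaact
Run shared by IFI27 and IFI6: ggaaaatgaaac
The repeat was 29 bases long, against a longest exact repeat of 7 bases in IFI27, 8 in IFI27L1 and 9 in IFI27L2, and 310 of 35116 windows (0.883%) held a repeat of at least that length. The shared run of 12 bases occurred once, at 96 bases before the start, in IFI27 and in 2 copies in IFI6. It was present in 7 genes of the table (0.0256%), counting IFI27 and IFI6, from which it was taken as their longest common run. The others were IFIT3, an interferon-induced gene that was 4.44 log2 units higher in T24/THP, CYBB, IL4 and OR5H15, whose differences of 0.02, 0.03 and 0.08 did not pass the call rule, and LOC105374548, which was not among the genes tested.

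**Figure D1:**
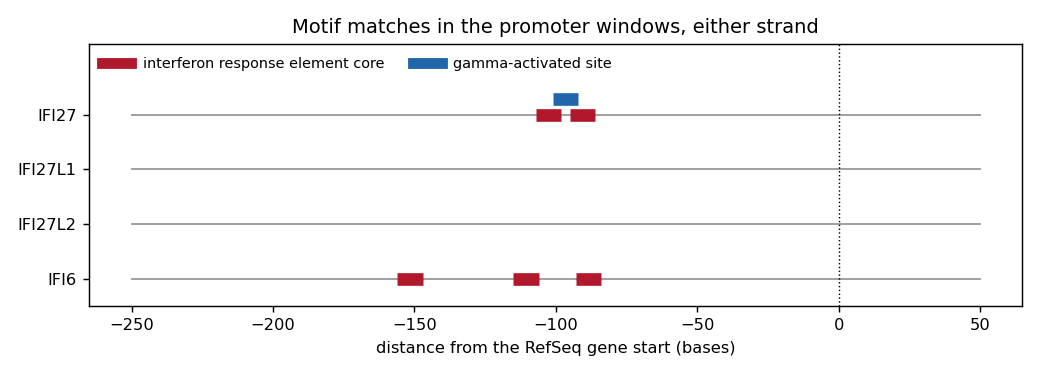
Positions of the motif matches in the promoter windows of the 4 genes, as the distance in bases from the RefSeq gene start (dotted line), with the interferon response element core in red and the gamma-activated site in blue. IFI27 and IFI6 hold 2 and 3 core matches between 156 and 93 bases before the start, and the windows of IFI27L1 and IFI27L2 are empty.

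Ranked by the signed difference, T24/THP minus T24, IFI27 stood 1st of all 24930 genes and IFI6 6th. Genes lower in T24/THP count as smaller in this ranking. The named clusters of IFI27L2 and IFI27L1 were higher in T24/THP by less than 1 log2 unit. A cluster with no gene symbol in the sense of IFI27L2 exons differed by 1.60, as described further below. Values below are the authors' log2 intensities, on which 1 unit is a 2-fold difference. Such a level is a property of a transcript cluster's probes, so levels are compared between lines and never between genes. In bulk RNA fewer cells of a type and less RNA per cell cannot be told apart.

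IFI27 was read by 66 probes of transcript cluster TC14000584.hg.1 (GRCh37, chr14:94577079-94583033, plus strand). It had 16.79, 17.06 and 16.94 log2 units on the 3 T24/THP arrays, against 5.91, 5.49 and 5.91 on the 3 T24 arrays. Every T24/THP array was far above every T24 array, with 10.88 units between the lowest T24/THP and the highest T24 value. The means were 16.93 ± 0.13 in T24/THP and 5.77 ± 0.25 in T24 (SD, n = 3 each), which differ by 11.16 ± 0.16 (SE), or 2288-fold. On the scale of signed differences, IFI27 stood 1st of 24930 genes.

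How far below T24/THP the parental line stands is limited by background. The array carries 23 background control probe sets. The brightest one on each array, averaged within a line, set an upper bound of background at 5.51 log2 units in T24/THP and 5.54 in T24. The T24 mean of IFI27 was above that bound, but T24 array 3, at 5.91, was below the brightest control probe set of that array, at 6.38, while arrays 1 and 2 lay above theirs, at 5.29 and 4.93. With each T24 array set to the higher of its own value and its brightest control probe set, the T24 mean was 5.93 and IFI27 was at least 2054.6-fold higher in T24/THP.

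IFI6 was read by 60 probes of TC01002412.hg.1 (GRCh37, chr1:27992572-27998729, minus strand). It had 18.19, 18.42 and 18.40 log2 units on the T24/THP arrays, against 11.66, 11.65 and 11.77 on the T24 arrays. The groups were 6.42 units apart at their nearest values, and T24 too was far above the background bound, on 3 of 3 arrays. The means were 18.33 ± 0.13 in T24/THP and 11.69 ± 0.07 in T24 (SD, n = 3 each), which differ by 6.64 ± 0.083 (SE), or 99.8-fold. Its signed difference was the 6th highest of all genes. The T24/THP values of IFI6 were close to the top of the scale, since the brightest transcript cluster of any array was at 19.83 to 19.93. IFI27 thus differed by 4.52 log2 units more than IFI6, from a parental level near background, and whether the response of the probes near the top of the scale narrows the IFI6 difference was not tested.

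IFI27L2 was read by 56 probes of TC14001463.hg.1 (GRCh37, chr14:94594118-94596590, minus strand). It had 6.15, 6.35 and 6.63 log2 units on the T24/THP arrays, against 5.64, 5.41 and 5.47 on the T24 arrays. The groups did not overlap, by 0.51 units, and the T24/THP arrays were above the background bound while the T24 mean was not. The means were 6.38 ± 0.24 in T24/THP and 5.51 ± 0.12 in T24 (SD, n = 3 each), a difference of 0.87 ± 0.16 (SE), and IFI27L2 was at least 1.48-fold higher. Without T24 array 3, which held the brightest control probe set, the T24 bound was 5.11, below this T24 mean. Its signed difference was the 910th highest, above that of 96.3% of genes, and in absolute size it was above that of 91.4%.

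IFI27L1 was read by 123 probes of TC14000583.hg.1 (GRCh37, chr14:94547628-94570192, plus strand). It had 5.83, 5.96 and 5.79 log2 units on the T24/THP arrays, against 5.53, 5.52 and 5.59 on the T24 arrays. The T24/THP values were all higher, by 0.19 units at the nearest pair, and both means lay above the background bound, T24 only just, with 2 of 3 T24 arrays above their own brightest control probe set. The means were 5.86 ± 0.09 in T24/THP and 5.55 ± 0.04 in T24 (SD, n = 3 each), which differ by 0.31 ± 0.056 (SE), or 1.24-fold. With the T24 arrays raised to their brightest control probe set where that was higher, as for IFI27, it was at least 1.03-fold higher. By signed difference it ranked 3215th, above 87.1% of genes, and by absolute size it was above 71.0%.

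**Figure D2:**
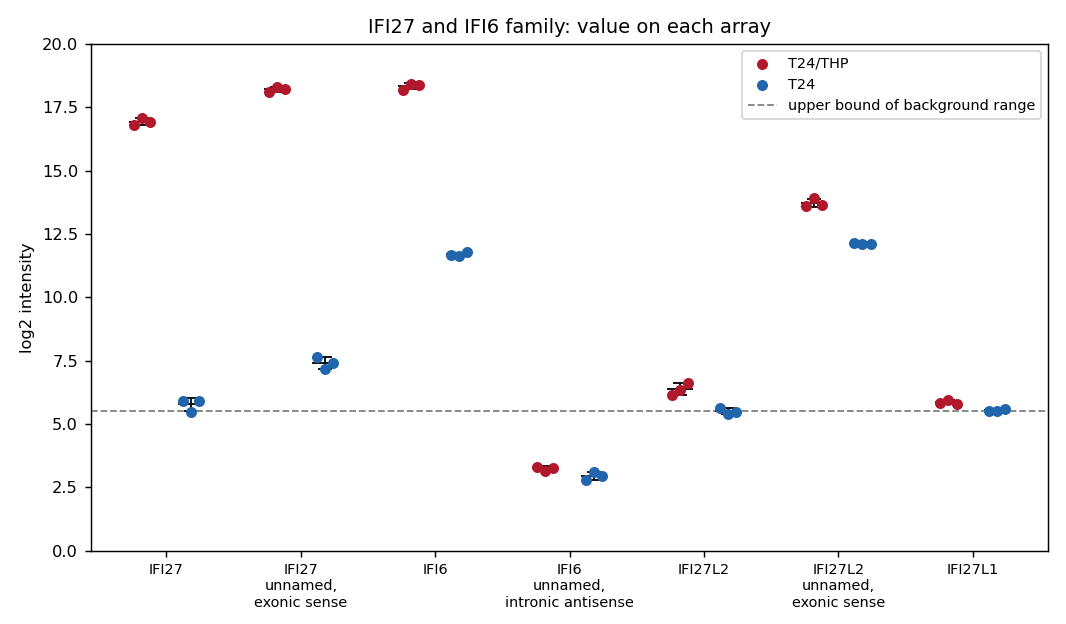
Log2 intensity of each transcript cluster of the family on each array, T24/THP in red left of T24 in blue, with bars for the mean and SD of 3 arrays and a dashed line at the upper bound of background. IFI27 and IFI6 stand 11.16 and 6.64 log2 units apart between the lines. The named clusters of IFI27L2 and IFI27L1 lie near the bound, while the unnamed exonic sense cluster at IFI27L2 lies well above it. Heights are not comparable between transcript clusters.

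A gene was called where limma's moderated fit over all genes gave a Benjamini-Hochberg adjusted p under 0.05 and a difference of at least 1 log2 unit. By that rule 710 of 24930 genes (2.85%) were higher in T24/THP and 941 (3.77%) lower. Of the 4 members, 2 met the rule, IFI27 and IFI6, both higher, but nothing is read from that count because the members were chosen on this contrast. Over all genes the median difference was 0.01 log2 units, and the middle 90% of genes lay between -0.86 and 0.72. IFI27L2 was just beyond the upper end of that range and IFI27L1 was inside it. The share of all genes at an unadjusted p under 0.05 is not given. Nothing is therefore read from the counts of any list or marker set at that threshold.

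Within each line, IFI27 and IFI6 varied little beside their difference between the lines. Among the T24/THP arrays, array 2 was the highest for IFI27, IFI6 and IFI27L1, whereas IFI27L2 was highest on array 3. The SD of the members was 0.09 to 0.24 log2 units over the T24/THP arrays and 0.04 to 0.25 over the T24 arrays, and the widest in T24 was that of IFI27. The median residual SD over all genes was 0.09. That of IFI27 was 0.20, of IFI27L2 0.19, of IFI6 0.10 and of IFI27L1 0.07.

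Transcript clusters with no gene symbol that the annotated table places at the same loci give another reading of 3 of the genes. They are outside the rule that chose the family, and whether they share probes with the named clusters is not given. An unnamed cluster of 35 probes in the sense of IFI27 exons (TC14001821.hg.1, chr14:94577084-94582176) had 18.12, 18.32 and 18.22 log2 units on the T24/THP arrays, against 7.66, 7.17 and 7.39 on the T24 arrays. Its T24 values were above background on 3 of 3 arrays, unlike those of the named cluster. The difference was 10.82 ± 0.15 (SE), or 1804.2-fold, against 11.16 from the named cluster.

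For IFI27L2 the unnamed cluster gave a larger difference. It covers 831 bases in the sense of IFI27L2 exons (TC14002133.hg.1, chr14:94594109-94594939, 30 probes). It had 13.60, 13.91 and 13.64 log2 units on the T24/THP arrays, against 12.14, 12.10 and 12.12 on the T24 arrays. Both lines were well above background, the groups did not overlap, and the 3 T24 arrays were nearly identical. The means were 13.71 ± 0.17 in T24/THP and 12.12 ± 0.02 in T24 (SD, n = 3 each), which differ by 1.60 ± 0.098 (SE), or 3.03-fold. That is 0.73 log2 units more than the named cluster showed, a gap reached by 4.56% of the 3199 unnamed exonic sense clusters of the array, whose median gap was 0.13. The gap at IFI27 was 0.34 in size, which 17.4% reached.

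In an intron of IFI6, an unnamed cluster on the opposite strand (TC01000365.hg.1, chr1:27995979-27996787, plus strand, 30 probes) had 3.32, 3.13 and 3.28 log2 units on the T24/THP arrays, against 2.79, 3.12 and 2.94 on the T24 arrays. All of these values were in the background range. It therefore carries no fold, and no signal from the strand opposite IFI6 was measurable there.

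IFI27, IFI27L1 and IFI27L2 lie together on chromosome 14, while IFI6 is alone on chromosome 1. IFI27L1 starts 37 bases from the start of DDX24, an RNA helicase gene on the other strand, and ends 6887 bases before IFI27, which ends 11085 bases before IFI27L2. Within 500 kb of IFI27, 17 other genes were measured, with a median difference of 0.07 log2 units, and for 13 of them neither line exceeded the background bound. Of the 17, 1 was called higher, DDX24, and 0 lower by limma, with 5 higher and 0 lower at an unadjusted p under 0.05. Over all genes, 2.85% were called higher and 3.77% lower.

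DDX24 had 12.30, 12.47 and 12.27 log2 units on the T24/THP arrays, against 11.05, 11.28 and 11.39 on the T24 arrays. It was 2.15-fold higher in T24/THP (12.35 ± 0.11 and 11.24 ± 0.17, SD, n = 3 each, limma adjusted p = 0.000114), a call that was lost when the test was made against a 2-fold difference. The nearest measured gene on the other side, PPP4R4, a regulatory subunit of protein phosphatase, differed by 0.24 and was not called. The 3 members at this locus thus differed by 0.31, 11.16 and 0.87 log2 units in their order along the chromosome.

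Around IFI6 23 other genes were measured within 500 kb, with a median difference of -0.03 and 7 of them in background in both lines. SMPDL3B, a membrane-anchored phosphodiesterase of the sphingomyelinase family, was the 1 gene called higher, and 0 were called lower, with 5 higher and 4 lower at an unadjusted p under 0.05. The shares called over all genes were 2.85% higher and 3.77% lower. SMPDL3B starts 268.9 kb from IFI6 and was at least 1.78-fold higher in T24/THP (6.37 ± 0.21 and 4.92 ± 0.09, SD, n = 3 each, limma adjusted p = 4.81e-05). That call too was lost against a 2-fold difference, and also with an offset of 32 added on the linear scale. FGR, a SRC family kinase, was in the background range, and FAM76A on the other side differed by -0.07. Neither the 17 neighbours of IFI27 nor the 16 neighbours of IFI6 with a promoter window held a match to the interferon element core.

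**Figure D3:**
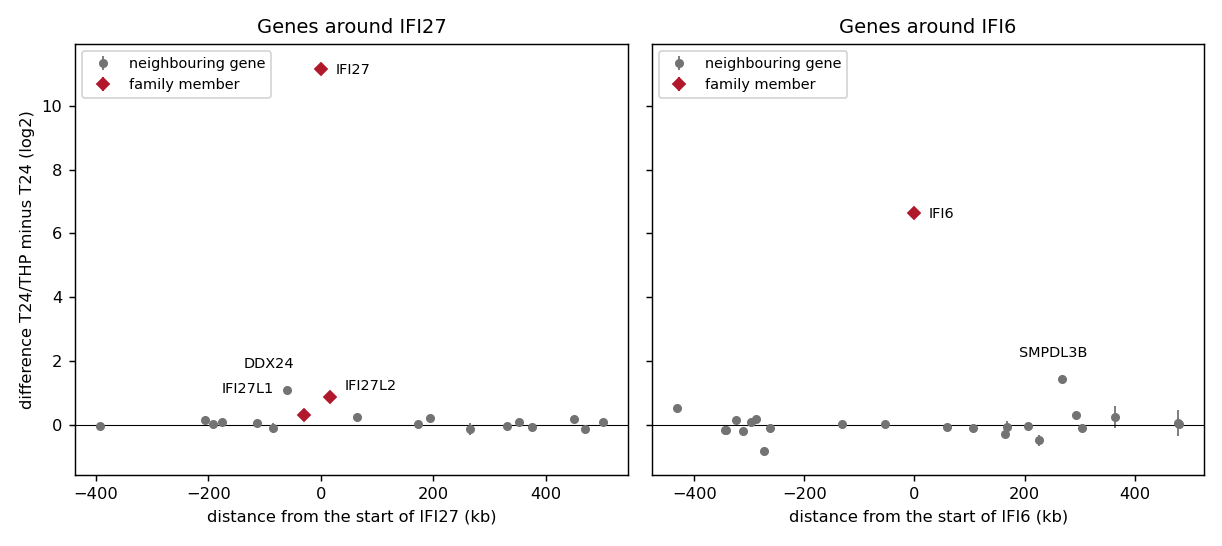
Difference between T24/THP and T24 in log2 units (vertical) against distance from the start of IFI27 (left) and IFI6 (right) in kb, for family members (red diamonds) and other genes (grey circles, bars are SE). IFI27 at 11.16 and IFI6 at 6.64 stand above every other gene within 500 kb, of which the highest are DDX24 at 1.10 and SMPDL3B at 1.45.

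The family was set beside other genes of the interferon pathway. The count called in each of these lists stands beside 2.85% higher and 3.77% lower over all genes. Of 46 other interferon-induced genes on a list, 45 were measured, and 42 were called higher and 0 lower in T24/THP by limma, with 45 higher and 0 lower at an unadjusted p under 0.05. Their median difference was 3.23 log2 units and their range 0.34 to 7.68, against a median of 0.01 over all genes. IFI27 lay above the whole range and IFI6 in its upper part, while IFI27L1 lay just below its lowest value, that of ISG20, a gene within background. The list was drawn up with the interferon-related differences of these arrays already known, so its direction is not independent evidence.

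The 4 called genes of that list with the largest differences were RSAD2 (viperin, an antiviral radical SAM enzyme), OAS2 and OAS1 (synthetases that sense double-stranded RNA) and IFI44L. RSAD2 had 12.10 ± 0.13 log2 units in T24/THP and 4.42 ± 0.10 in T24 (SD, n = 3 each), at least 94.4-fold higher. OAS2 was 168-fold higher, IFI44L 162-fold and OAS1 at least 30.6-fold. The 3 not called were ISG20, an exonuclease, which was within background in either line (difference 0.34), and IFITM2 and IFITM3, membrane proteins that block viral entry, with 0.73 and 0.67.

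All 21 interferon ligand genes measured, of types I, II and III, stayed within background in each line. Limma called 0 higher and 0 lower, with 2 higher and 0 lower at an unadjusted p under 0.05, and their differences ran from -0.23 to 0.58 with a median of -0.02. Interferon RNA was therefore not detectable on these arrays in either line, which does not show its absence.

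Of 9 receptor chains and Janus kinases, 0 were called in either direction by limma, with 2 higher and 2 lower at an unadjusted p under 0.05. Their differences ran from -0.29 to 0.25 with a median of -0.08. IFNAR1 and IFNAR2, the receptor of type I interferon, differed by -0.29 and -0.09, and the kinases they use, JAK1 and TYK2, by -0.14 and less than 0.01 in size. IFNGR1 and IFNGR2, the receptor of interferon gamma, differed by 0.25 and -0.28, JAK2 by 0.24 and IL10RB, a chain of the type III receptor, by -0.08. IFNLR1, its partner chain, was in background.

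Of 8 transcription factors of the pathway described here, 2 were called higher and 0 lower, with 5 higher and 0 lower at an unadjusted p under 0.05. STAT2 had 11.45 ± 0.09 log2 units in T24/THP and 8.24 ± 0.16 in T24 (SD, n = 3 each), 9.24-fold higher. IRF7, which drives interferon genes, was 2.82-fold higher, with 2 of 3 T24 arrays above their own brightest control probe set. IRF9, a DNA-binding partner of STAT2, differed by 0.58 and missed the size threshold. IRF1, within background in T24, was at least 1.17-fold higher and not called. STAT3 differed by 0.28 and IRF2 by 0.08, and IRF3 and IRF5 were in background. Of 7 genes that restrain the pathway, 1 was called higher and 0 lower, with 2 higher and 2 lower at an unadjusted p under 0.05, and the called gene was USP18, the ISG15 protease that blocks the type I receptor, at 8.98-fold, again with 2 of 3 T24 arrays above their own control. USP18 is also on the interferon-induced list.

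**Figure D4:**
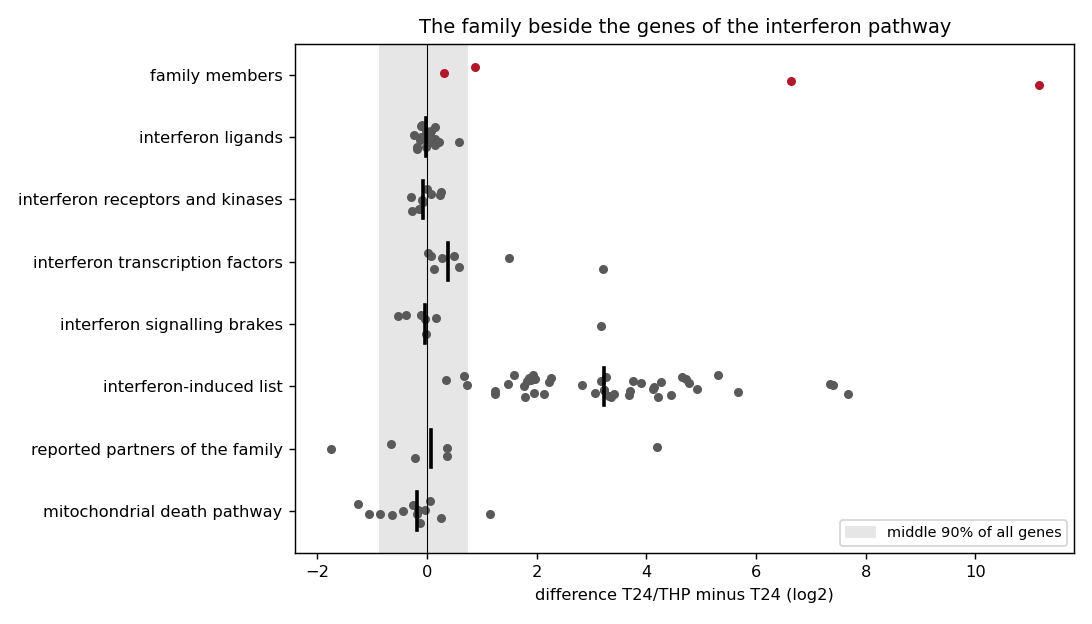
Difference between T24/THP and T24 in log2 units for the 4 family members (red) and the genes of each list (grey points, black bar at the list's median), with the middle 90% of all genes shaded. The interferon-induced list has its median at 3.23, the ligands and receptors lie around 0, and IFI27 at 11.16 lies to the right of every listed gene.

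Among 6 genes reported by others as partners of the family, 1 was called higher and 1 lower by limma, where 2.85% of all genes were called higher and 3.77% lower. At an unadjusted p under 0.05, 3 were higher and 3 lower. NR4A2, an orphan nuclear receptor of the group that IFI27 has been reported to bind, had 9.63, 9.85 and 10.05 log2 units on the T24/THP arrays, against 5.64, 5.52 and 5.79 on the T24 arrays. It was 18.3-fold higher (limma adjusted p = 7.52e-07), with the groups far apart, and 2 of 3 T24 arrays above their own brightest control probe set. NR4A1 and NR4A3, its relatives, were within background in either line.

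SKP2, a substrate receptor of a ubiquitin ligase with which IFI27 has been reported to act on a viral protein, was the gene called lower. It had 9.61, 9.53 and 9.55 log2 units on the T24/THP arrays, against 11.12, 11.53 and 11.31 on the T24 arrays, and was 3.38-fold lower (limma adjusted p = 1.49e-05). XPO1, the nuclear exporter, differed by -0.66 and missed the size threshold. HSPA5, an endoplasmic reticulum chaperone reported as a partner of IFI6, differed by -0.22 and met neither threshold (limma adjusted p = 0.0644).

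The genes whose profile over the 6 arrays was most like that of IFI27 and of IFI6 were found by the Euclidean distance between log2 profiles, each centred on its own mean, among 10518 other genes measured above background in at least 1 line. With 2 lines, this distance mostly compares the size of the difference, and it says nothing of shared function. IFI27 had no close match: the nearest was CST4, a secreted cystatin, at a distance of 3.85, followed by RSAD2 at 4.29, OAS2 at 4.62, IFI44L at 4.69 and IFI6 at 5.54. IFI6 was nearest to CST1, another cystatin, at 0.69, followed by OAS2 at 0.95, IFI44L at 1.02, LOC100507065 on chromosome 12 at 1.15 and OAS1 at 1.24.

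CST4 differed by 8.04 log2 units (262-fold) and CST1 by 6.20 (73.5-fold), and as close paralogs their probes may share signal. LOC100507065 was at least 31.8-fold higher in T24/THP. Of the interferon-induced genes in these lists, IFI44L held 2 matches to the interferon element core in its promoter window, RSAD2 held 1 and OAS1 held 0. The promoter of OAS2 was not analysed here.

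**Figure D5:**
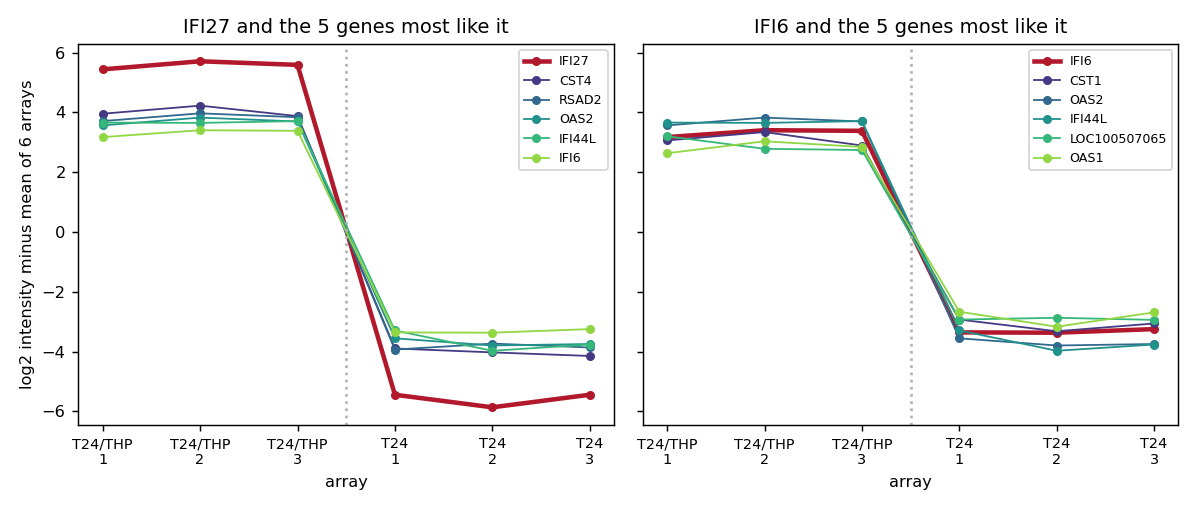
Log2 intensity minus the gene's own mean over 6 arrays, for T24/THP arrays (left of the dotted line) and T24 arrays (right), with IFI27 (left panel) and IFI6 (right panel) in thick red and the 5 genes most like each in thin lines. The lines of IFI27 run outside those of the other 5 genes on all 6 arrays, while IFI6 runs among its 5 genes.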

How the data were processed

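Expression was measured in total RNA of 6 samples on Affymetrix whole-transcript arrays, after amplification and biotin labelling with the WT PLUS kit per the labels. The authors deposited log2 intensities, with a value for each transcript cluster on each array. The submitters' processing notes name Affymetrix Expression Console, with no version, and the algorithm behind the values is not given in the sources used here. No further normalization was applied, and the number of arrays limits the precision.

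Of 65854 transcript clusters, 26515 have exactly 1 symbol. Symbols were updated through a RefSeq table, which changed 3656, and of 610 genes with several clusters the one with the highest mean was used, leaving 24930 genes. Dim genes were kept in the test. A gene at or under the background bound in 1 line gets a fold only as "at least", taken against the higher of its own value and the brightest of the 23 background control probe sets on each array.

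T24/THP was compared with T24 with a two-sided test by lmFit and eBayes (limma 3.58.1, R 4.3.3) and no covariate, with Benjamini-Hochberg adjustment over all 24930 genes, and the fit was tested on simulated data. SE is that of the difference of the 2 group means from their SDs. Genes were named by a rule: all members, the 5 genes most like IFI27 and IFI6, the 4 largest called and all uncalled genes of the interferon-induced list, called members of other lists (up to 3 per direction) with every receptor, kinase, factor and partner above background, and called or nearest neighbours. The other genes holding the shared promoter run were picked for naming with their values in view. The members and all lists were chosen with earlier results of these data known. Alternatives were normalization, an offset, a filter, the treatment of several clusters, the test, a replicate block and leaving out each array. Coordinates of clusters are those of the deposited table (GRCh37) and promoter sequences are RefSeq's (GRCh38.p14). Protein sequences were not used here, and 1 item of the transcription factor list is not reported here.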

Additional observations from a re-analysis of the deposited data

How the results depend on the processing

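The members kept the direction of their difference under the 12 alternatives, of 15 run, that gave another estimate of it. The other 3 changed only the test or the genes in it. Of the 12, the replicate block, the second deposited set of values and the averaging of several clusters left every member's difference unchanged. Those settings are therefore no check on the members. Leaving out 1 array at a time gave 11.02 to 11.23 log2 units for IFI27, 6.60 to 6.71 for IFI6, 0.74 to 0.98 for IFI27L2 and 0.26 to 0.35 for IFI27L1. An offset of 32 on the linear scale, which shrinks differences of dim probes, gave 10.49 for IFI27, 0.57 for IFI27L2 and 0.19 for IFI27L1, and quantile normalization gave 0.21 for IFI27L1, more than 1 SD below the 0.31 reported. The test against a 2-fold difference, a stricter test by construction, called 356 genes higher and 382 lower in place of 710 and 941. Under it 0 neighbours of IFI27, 0 neighbours of IFI6 and 0 genes of the mitochondrial death pathway were called, and with the offset 0 neighbours of IFI6. With the offset, 514 genes were called higher and 703 lower. Of the interferon-induced list, 40 genes were called against a 2-fold difference and 38 with the offset, in place of 42. The replicate numbers are not said to pair the samples. Deviations of same-numbered arrays correlated at 0.04, 0.15 and 0.02, against -0.15 to 0.11 for differently numbered arrays. With 3 arrays per line these values cannot tell whether same-numbered samples shared a batch. A fit with the replicate block called 711 higher and 942 lower. Of 34 named genes other than the members, 29 kept their call under all alternatives, and DDX24, SMPDL3B, BCL2L1, CYCS and VDAC1 lost it in the test against a 2-fold difference. Levels near the background bound, as for the named clusters of IFI27L1 and IFI27L2, and 3 arrays per line limit what can be shown.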

Other observations

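Of 13 genes of the mitochondrial death pathway, on which IFI27 and IFI6 have been reported to act, 1 was called higher and 2 lower in T24/THP by limma, where 2.85% of all genes were called higher and 3.77% lower. At an unadjusted p under 0.05, 2 were higher and 6 lower, and the median difference was -0.18 log2 units, against 0.01 over all genes. BCL2L1, which encodes the survival protein BCL-XL, was 2.22-fold higher, at 11.04 ± 0.08 log2 units in T24/THP and 9.89 ± 0.11 in T24 (SD, n = 3 each). BCL2, another survival gene, differed by -0.85 and missed the size threshold (limma adjusted p = 8.89e-05), with its T24/THP arrays within background. CYCS, which encodes cytochrome c, was 2.40-fold lower, at 8.95 ± 0.15 in T24/THP and 10.21 ± 0.14 in T24. VDAC1, a channel of the outer mitochondrial membrane, was 2.09-fold lower, at 9.49 ± 0.04 in T24/THP and 10.55 ± 0.08 in T24. All 3 calls were lost in the test against a 2-fold difference.

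On chromosome 14 beyond 50 Mb, which holds IFI27, IFI27L1 and IFI27L2, 632 other genes were measured. Of these 46 (7.28%) were called higher and 2 (0.316%) lower in T24/THP, against 2.85% higher and 3.77% lower of all genes. The median difference was 0.08 log2 units, against 0.01 over all genes. This region was not among the planned comparisons, so its counts and median are given as a description only. Whether the values of the 3 members share in the regional difference was not tested.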
